A study of Schizosaccharomyces pombe with 4 samples.

Results

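The intergenic non-coding RNA genes of the fission yeast Schizosaccharomyces pombe are described here, for wild-type cells and for delta4dus cells, which are labelled as lacking all dihydrouridine synthase genes. They were chosen by position in the count table: an SPNCRNA identifier, and a span from first to last base that overlaps no other gene of the table on either strand. The rule found 242 of the 1541 SPNCRNA genes and of 7049 genes in all. Of the other SPNCRNA genes, 511 overlapped a gene on their own strand and 787 overlapped a gene on the opposite strand only. SPNCRNA.103 was left out.

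Transcripts were measured by strand-preserving RNA sequencing after ribosomal RNA depletion, with 2 libraries of a wild-type strain and 2 of delta4dus, labelled as deleted for dus1, dus2, dus3 and dus4. Both strains were grown in YES, a rich medium, at 32 °C to an optical density near 0.5. The labels give no number of clones and mark replicates by a number only, so a p-value here reflects how far these libraries vary, possibly for technical reasons. The comparison asks which transcript levels differ between the strains.

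Fission yeast transcribes much of the DNA between its coding genes. The long non-coding RNAs made there are transcribed by RNA polymerase II, and many are short-lived, since the nuclear exosome and its cofactors degrade them. Others are stable structural RNAs, and transcripts of the centromeric repeats feed the RNA interference pathway that builds heterochromatin. Dihydrouridine synthases reduce uridine to dihydrouridine, a modification best known from transfer RNA.

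Totals were 264948323 to 495098038 counts per library, of which 40203853 to 59273688 lay outside rRNA genes. The rRNA genes held 84.7% and 84.8% of the counts in wild-type against 86.4% and 90.7% in delta4dus. The normalised count of dus1 was 2246 and 2372 in wild-type against 135 and 186 in delta4dus, with an edgeR adjusted p of 0.00418. By edgeR, reads at dus2 fell from 2384 and 2241 to 291 and 307 (adjusted p 0.000224). Reads at dus3 fell less, from 3955 and 3929 to 1308 and 1362 (log2 fold change -1.56, edgeR adjusted p 0.000818). The normalised counts of dus4 were 541 and 571 against 314 and 156, lower in both delta4dus libraries (log2 fold change -1.23). It did not pass (edgeR adjusted p 0.626), so the loss of dus4 that the label gives shows only as a partial fall.

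A few sequences show what kinds of gene the rule gathered. All were read 5′ to 3′ on the gene's own strand from the ASM294v3 assembly, at that assembly's coordinates. The most abundant is srp7 (SPNCRNA.98), the RNA scaffold of the signal recognition particle, which brings ribosomes making secreted proteins to the endoplasmic reticulum. ASM294v3 gives it 255 bases (chrI:4268662-4268916, plus strand), inside a longer span in the count table.
srp7: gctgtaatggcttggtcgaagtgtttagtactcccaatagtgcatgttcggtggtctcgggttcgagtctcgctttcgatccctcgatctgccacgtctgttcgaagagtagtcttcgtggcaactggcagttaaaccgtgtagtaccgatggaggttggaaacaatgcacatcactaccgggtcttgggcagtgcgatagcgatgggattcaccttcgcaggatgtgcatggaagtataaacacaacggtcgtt

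SPNCRNA.1094 (chrIII:23658-23889, minus strand) lies at the left end of chromosome III, upstream of an rRNA gene on the same strand. It is shown as an example of a gene with 4 other near-identical copies in the assembly.
SPNCRNA.1094: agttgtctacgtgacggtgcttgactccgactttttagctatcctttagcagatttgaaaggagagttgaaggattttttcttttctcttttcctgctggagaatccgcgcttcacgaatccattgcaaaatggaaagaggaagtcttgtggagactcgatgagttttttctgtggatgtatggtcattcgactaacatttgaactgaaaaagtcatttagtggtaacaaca

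The shortest genes, SPNCRNA.116 (chrII:1749534-1749589, plus strand) and SPNCRNA.118 (chrII:2983907-2983962, plus strand), are annotated as paralogs of each other. They have 56 bases each and differ at 6 of them, printed in capitals.
SPNCRNA.116: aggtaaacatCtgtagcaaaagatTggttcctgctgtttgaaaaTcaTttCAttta
SPNCRNA.118: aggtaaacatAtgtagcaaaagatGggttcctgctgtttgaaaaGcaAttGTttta

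The centromeric genes SPNCRNA.483 (chrIII:1093231-1093387, plus strand) and SPNCRNA.484 (chrIII:1105609-1105766, plus strand) show the inverted repeats of a centromere. Capitals mark the 155 bases of each that are the reverse complement of the other.
SPNCRNA.483: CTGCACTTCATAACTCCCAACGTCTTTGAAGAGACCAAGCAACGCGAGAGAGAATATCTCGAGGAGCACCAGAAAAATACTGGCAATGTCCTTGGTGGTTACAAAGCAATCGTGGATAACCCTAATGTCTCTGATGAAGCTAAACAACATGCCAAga
SPNCRNA.484: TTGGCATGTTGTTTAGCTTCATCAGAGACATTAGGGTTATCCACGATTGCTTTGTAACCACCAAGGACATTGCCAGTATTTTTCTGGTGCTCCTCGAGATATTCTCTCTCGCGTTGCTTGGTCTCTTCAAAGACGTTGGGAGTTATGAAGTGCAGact

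IRC1-L (SPNCRNA.84) and nam5 (SPNCRNA.230), at the left border of centromere I, point away from each other with only 37 bases between them (chrI:3753693-3753729, plus strand), the smallest gap among the divergent pairs of these genes in which each is the other's nearest.
IRC1-L to nam5: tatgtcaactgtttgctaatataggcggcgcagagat

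The last sequences are the start regions, from 250 bases before to 50 bases after the annotated start, of the 3 genes with the smallest p in the comparison of the strains. They are SPNCRNA.389 (chrII:2129553-2129852, plus strand), SPNCRNA.751 (chrI:1647137-1647436, minus strand) and SPNCRNA.1190 (chrIII:1371327-1371626, plus strand). Capitals mark TATAAA on either strand, which begins 8 bases before the annotated start of SPNCRNA.1190 and 33 bases after that of SPNCRNA.389. The window of SPNCRNA.751 does not hold these letters.
SPNCRNA.389: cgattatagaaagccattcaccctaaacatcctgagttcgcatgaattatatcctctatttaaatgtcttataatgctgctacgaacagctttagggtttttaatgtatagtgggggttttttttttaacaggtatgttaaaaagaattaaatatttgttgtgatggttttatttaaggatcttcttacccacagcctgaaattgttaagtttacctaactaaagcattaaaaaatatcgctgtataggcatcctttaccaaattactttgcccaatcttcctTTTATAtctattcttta
SPNCRNA.751: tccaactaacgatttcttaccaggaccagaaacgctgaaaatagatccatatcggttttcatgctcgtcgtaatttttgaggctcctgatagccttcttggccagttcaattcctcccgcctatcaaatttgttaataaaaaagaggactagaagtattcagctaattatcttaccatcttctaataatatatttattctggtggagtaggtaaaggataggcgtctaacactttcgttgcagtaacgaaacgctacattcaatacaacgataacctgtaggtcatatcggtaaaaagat
SPNCRNA.1190: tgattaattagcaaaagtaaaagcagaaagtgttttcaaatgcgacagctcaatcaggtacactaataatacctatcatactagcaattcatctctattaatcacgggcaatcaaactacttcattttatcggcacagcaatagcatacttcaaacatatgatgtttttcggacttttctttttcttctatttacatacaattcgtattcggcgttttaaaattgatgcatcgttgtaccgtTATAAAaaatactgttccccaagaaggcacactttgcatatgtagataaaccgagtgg

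The start windows of these genes were set beside those of all genes in letter content, without a test. TATAAA, the core letters of a TATA box, was present on either strand in 45.1% of 226 windows, against 47.5% of 6843 windows over all genes with a start in the assembly. TGACGT, which holds the half-site of the stress transcription factor Atf1, was in 9.29% against 6.20%. CAGTCACA, the HomolD box of ribosomal protein genes, was in 1.77% against 2.59%, and the E-box CACGTG in 0.442% (1 window) against 1.65%. A run of AAAAAAAA was in 25.2% against 21.8%. Each motif was searched on both strands, and matches of different motifs may overlap. A window can also reach into a neighbouring gene, as at SPNCRNA.751, which starts 12 bases from vma1. The transcribed spans were poorer in G and C than coding genes, with a median of 31.8% against 36.8%.

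Of the 242 genes, 107 lie on chromosome I, 86 on chromosome II and 49 on chromosome III. Their median length was 507 bases (quartiles 335 and 819), and 40 were shorter than 200 bases. The longest were SPNCRNA.1443 with 2796 bases and the centromeric SPNCRNA.360 with 2695. The gap to the nearest gene had a median of 137 bases (quartiles 58 and 345), close to the 136 bases of the 1784 coding genes that also overlap no other gene. In 154 cases the gap was under 200 bases, in 81 it was at least 200 and below 1000 bases and in 7 it was 1000 bases or more. The most isolated genes were the centromeric SPNCRNA.370, with 2931 bases to the nearest gene, and SPNCRNA.234, with 2263, followed by SPNCRNA.1299 near the right ribosomal DNA, with 1566. The nearest gene was coding in 159 cases, another non-coding RNA in 63, a tRNA in 15, an rRNA in 3 and of another kind in 2.

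Divergent placement, in which the starts of both genes face each other, was the most frequent and held 84 genes (34.7%). Another 81 (33.5%) lay upstream of the nearest gene on the same strand and 41 (16.9%) downstream of it on the same strand. In the 36 others (14.9%) the 3′ ends faced each other. Among the 1784 isolated coding genes the order was different: 18.7% were divergent, 31.7% convergent, 30.7% upstream in tandem and 18.9% downstream in tandem. Genes upstream in tandem had the widest gaps, with a median of 225 bases, and convergent genes the narrowest, with 87.

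Isolation depends on the annotation. Of the 242 genes, 228 have the same identifier in ASM294v3, and 135 of these overlap another gene there, a coding gene in 3 cases, while 93 still overlap none. The 135 had a median wild-type level of 1.06 and a median log2 fold change of 0.05, and the 93 had 0.775 and 0.09. Levels are given as counts per kb of gene and per 1000000 counts outside rRNA genes.

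**Figure D1:**
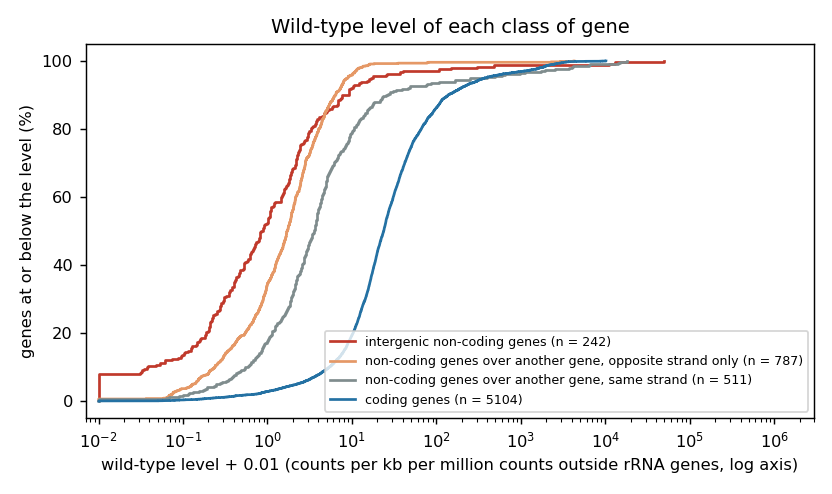
Share of genes at or below each wild-type level, for 4 classes of gene. The x axis is the mean of 2 wild-type libraries plus 0.01 on a log scale, in counts per kb and per 1000000 counts outside rRNA genes, and the curve of the intergenic genes lies farthest left through its middle, with a median of 0.852 against 23.7 for coding genes.

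Most of these transcripts were scarce. The median wild-type level was 0.852 (quartiles 0.221 and 2.43), against 1.70 for non-coding genes that overlap a gene on the opposite strand only, 3.56 for those that overlap one on the same strand and 23.7 for coding genes (quartiles 12.3 and 50.8). A read was found in every library for 190 genes and in no library for 12, where a count of 0 still allows up to 3 counts per library. The mean count was at least 50 for 90 genes and at least 1000 for 9. Only 16 genes exceeded the lower quartile of coding genes and 11 their median. By placement the median level was 1.55 for convergent, 1.31 for divergent, 0.615 for upstream tandem and 0.562 for downstream tandem genes. The gene's level was below that of its nearest gene in 192 of 242 cases. Across the 41 genes that follow another on the same strand, log2 levels of gene and neighbour had a Pearson correlation of 0.539 and a Spearman correlation of 0.543. In the 14 of them whose neighbour is a coding gene these were -0.169 and -0.275, and over all 242 they were 0.325 and 0.210. The pairs share the libraries, and the part of reads that run on from the upstream gene was not tested.

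At the other end of the scale stood 3 genes that together held 97.6% to 98.1% of all counts at the 242 genes. The level of srp7 was 43723 and 55661 in wild-type against 47600 and 51910 in delta4dus, so the strains overlapped. Its log2 fold change was 0.03 (95% interval -0.83 to 0.89).
SPNCRNA.1095 and SPNCRNA.1094 lie 29 bases apart on chromosome III, upstream of an 18S rRNA gene on the same strand, with 527 bases between it and SPNCRNA.1094. Whether reads at SPNCRNA.1095 and SPNCRNA.1094 belong to a longer transcript of that rRNA gene was not tested. The level of SPNCRNA.1095 was 16176 and 9928 in wild-type against 12511 and 8115 in delta4dus. SPNCRNA.1094 had 12767 and 9116 against 10697 and 9409. In both genes the first wild-type library was the highest, and the strains overlapped. Their log2 fold changes were -0.31 (95% interval -1.06 to 0.43) and -0.09 (-0.53 to 0.36). Each has 4 other copies in the assembly, at least 95% identical over at least 50% of its length, so which copy the reads came from is uncertain. Within each library the counts of the 3 large rRNA copies were within 0.511% of each other; how reads that map to several copies were counted is not given in the labels.

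The share of counts outside rRNA genes that fell on the 242 genes was 3.40% and 3.57% in wild-type against 3.35% and 3.30% in delta4dus. Both delta4dus values were lower, and the two-sided exact permutation test gave p = 0.333, the smallest that 2 libraries against 2 allow. Without srp7, SPNCRNA.1094 and SPNCRNA.1095 the share was 0.0759% and 0.0671% in wild-type against 0.0796% and 0.0674% in delta4dus, and the strains overlapped (exact permutation p = 0.667).

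The other abundant genes were mostly short. snoR61 (SPNCRNA.445, chromosome II, 3874254 to 3874906, minus strand in ASM294v2, the build of the count table), a small nucleolar RNA of a class that guides modification of rRNA, had normalised counts of 7214 and 7323 in wild-type against 7147 and 6223 in delta4dus. Both delta4dus values were lower, with a log2 fold change of -0.12 (SE 0.08). sno530 (SPNCRNA.530, chromosome I, 1966483 to 1966635, minus strand), another small nucleolar RNA, had 1830 and 2594 against 2458 and 2744, with overlapping strains. SPNCRNA.1444, which ends 87 bases from the end of SPNCRNA.1443, had 1686 and 2834 against 2083 and 4496, also overlapping. SPNCRNA.907, 25 bases from the coding gene SPAP32A8.02 in divergent placement, was among the steadiest, with 751 and 756 against 776.6 and 780.6.

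**Figure D2:**
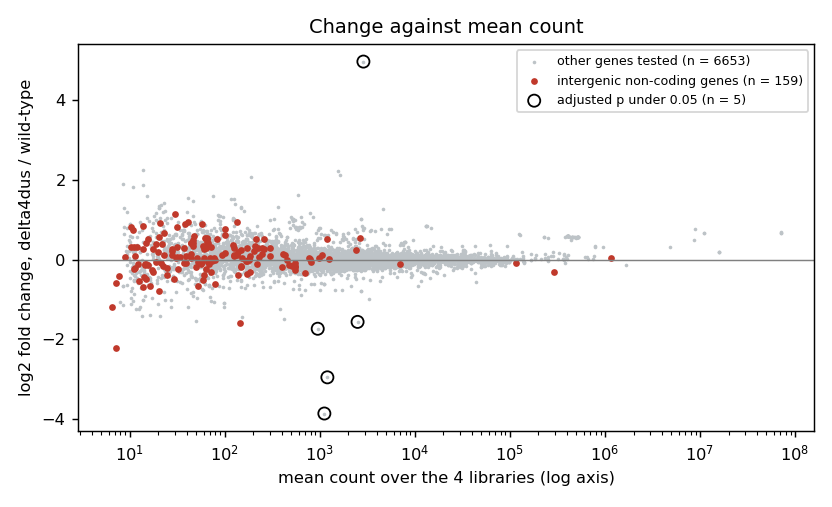
Log2 fold change of delta4dus over wild-type against the mean count of 4 libraries on a log axis, for every gene tested except SPNCRNA.103. The 159 intergenic non-coding genes are in red, and none is among the 5 circled genes with an edgeR adjusted p under 0.05.

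No intergenic non-coding gene passed the test of genotype alone between delta4dus and wild-type. Of the 242, 159 had enough reads to be tested, and the 83 others had a mean of at most 10.5 counts per library. edgeR called 0 of the 159, against 0.0734% of all 6813 genes tested, and the smallest adjusted p was 0.561. DESeq2 called 0 as well, against 0.74% of all genes with a fold change. It gave no adjusted p for some genes with few reads, SPNCRNA.323 and SPNCRNA.365 among them, so these could not be called. The authors' deposited table also called 0, against 0.7% of its rows, although it gives an adjusted p for only 174 of the 242. At an unadjusted p under 0.05, edgeR gave 3 of 159, DESeq2 gave 3 and so did the authors' deposited table. The edgeR share over all genes was 7.57%.

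The log2 fold changes lay around 0, with 93 above and 66 below. Their median was 0.07, against 0.00 for all genes, 0.12 for non-coding genes over a gene on the opposite strand, 0.05 for those over one on the same strand and -0.02 for coding genes. Its sign was not stable: scaling by library totals gave -0.36, with -0.42 for all genes, and leaving out a library gave values from -0.04 (without delta4dus replicate 1) to 0.21 (without wild-type replicate 1). In 124 genes the fold change was within 0.5 of 0, and in 4 its size was 1 or more. The normalised counts of the strains did not overlap in 51 genes, 34 higher and 17 lower in delta4dus. Over all genes tested the strains did not overlap in 38.7%, with 19% higher and 19.7% lower. The precision was modest: the median standard error was 0.33, against 0.07 for coding genes, and the 95% interval lay wholly between -1 and 1 for 68 of the 159.

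**Figure D3:**
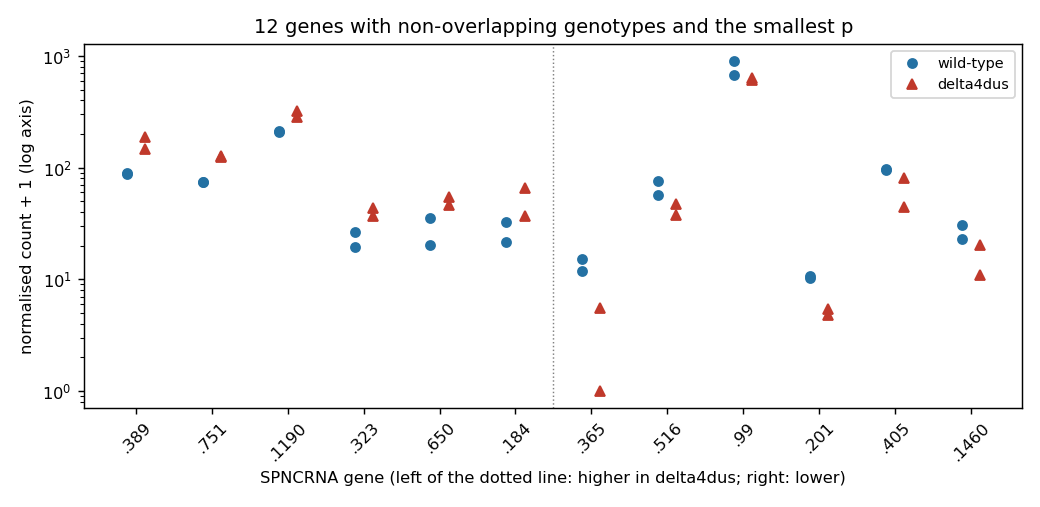
Normalised counts plus 1, on a log axis, of 12 genes in each of 4 libraries (circles wild-type, triangles delta4dus). The genes are the 6 higher and the 6 lower in delta4dus with the smallest p among those whose strains do not overlap, and none passed the adjusted test.

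Of the 6 genes higher in both delta4dus libraries with the smallest p, 5 are divergent from their nearest gene. Divergent genes made up 62 of the 159 tested and 19 of the 34 higher without overlap. The 6 were picked by p, and a link with placement was not tested. SPNCRNA.389 (chromosome II, 2129803 to 2130589, plus strand), annotated to the mating-type region, had 88.1 and 86.8 normalised counts in wild-type against 187 and 146 in delta4dus. Its log2 fold change was 0.93 (SE 0.22, 95% interval 0.38 to 1.48, edgeR p 0.00658, adjusted p 0.561). Its nearest gene, rpp202, lies 1284 bases away in divergent placement. rpp202 had 62181 and 44733 normalised counts in wild-type against 35439 and 37509 in delta4dus (log2 fold change -0.55, edgeR adjusted p 0.626). The 787 bases of SPNCRNA.389 occur again, 100% identical and inverted, at 2135740 to 2136526 of chromosome II in ASM294v3. Reads of these copies therefore cannot be told apart. SPNCRNA.390, the neighbour that overlaps that copy on the other strand, had 51 and 26 raw counts in wild-type against 65 and 33 in delta4dus. After scaling for library size its log2 fold change was 0.04. Genes that mark the mating types were measured in the same libraries. The summed level of 5 genes of the M type was 50.7 and 39.4 in wild-type against 25.5 and 21.1 in delta4dus. All 5 had fold changes below 0 and none passed the edgeR test (lowest adjusted p 0.231). Much of the sum was mfm2, with 34.7 and 24.1 against 11.8 and 8.54. The log2 fold changes ranged from -1.50 for mfm2 to -0.11 for mam1, and mfm3 overlapped between strains. The summed level of 3 genes of the P type was 6.43 and 4.98 against 5.35 and 4.61, overlapping between strains. The part of the mating type in the value of SPNCRNA.389 was not tested, and fewer cells of a type and less RNA per cell cannot be told apart in these bulk samples.

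SPNCRNA.751 (chromosome I, 1646603 to 1647186, minus strand) starts 12 bases from vma1, which encodes the catalytic subunit of the vacuolar proton pump, and points away from it. Its normalised counts were 73.8 and 73.4 in wild-type against 124 and 127 in delta4dus, which gave a log2 fold change of 0.77 (SE 0.20, edgeR adjusted p 0.599). vma1 had 13315 and 13902 against 13231 and 13961, with a log2 fold change of -0.001. SPNCRNA.1190 (chromosome III, 1371577 to 1372674, plus strand) lies 421 bases upstream of ags1, the cell wall alpha-glucan synthase, on its strand. It had 211 and 209 against 282 and 320, a log2 fold change of 0.52 (SE 0.15, edgeR adjusted p 0.626), while that of ags1 was 0.18. Both non-coding genes were picked for strains that do not overlap and for small p, so their separation is no further support. SPNCRNA.389, SPNCRNA.751 and SPNCRNA.1190 each overlap 1 other non-coding gene of ASM294v3, so they are isolated only in the older annotation.

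The next ones had fewer reads. SPNCRNA.323, divergent from knk1, had 25.6 and 18.3 normalised counts in wild-type against 42.1 and 35.6 in delta4dus. SPNCRNA.650, divergent from ste7, had 19.5 and 34.2 against 45.1 and 53.4. SPNCRNA.184, divergent from the protein disulfide isomerase gene pdi2, had 31.8 and 20.8 against 64.3 and 35.6. Their log2 fold changes were 0.81, 0.88 and 0.93, with edgeR adjusted p of 0.667, 0.667 and 0.686. Single libraries set much of these sizes: SPNCRNA.650 had 0.52 without wild-type replicate 1 and 1.33 without wild-type replicate 2, and SPNCRNA.184 had 0.42 without delta4dus replicate 1.

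Among the genes lower in both delta4dus libraries, the smallest p belonged to the centromeric SPNCRNA.365, with 14 and 9 counts in wild-type against 6 and 0 in delta4dus (edgeR adjusted p 0.667). SPNCRNA.516, divergent from the ubiquinone synthesis gene coq11, had 74.8 and 56.2 normalised counts against 45.9 and 36.7, a log2 fold change of -0.66 (SE 0.29). SPNCRNA.99 had 908 and 669 against 611 and 629, a log2 fold change of -0.35 (SE 0.16). Without wild-type replicate 1 that value was -0.11, and without wild-type replicate 2 it was -0.55. SPNCRNA.99 has no entry in ASM294v3 and lies 2 bases downstream of SPAC9E9.02. SPNCRNA.201, which follows the hexokinase gene hxk2, had 9 and 8 counts against 5 and 4. SPNCRNA.405 had 93.3 and 96.6 normalised counts against 79.6 and 43.4, and SPNCRNA.1460 had 29.7 and 22.0 against 19.1 and 10.0. Leaving out a library also moved SPNCRNA.516 to -0.44 (wild-type replicate 1), SPNCRNA.405 to -1.13 and -0.25, and SPNCRNA.1460 to -1.37 and -0.44 (delta4dus replicates 1 and 2). In this lower set the second delta4dus library was the lowest of the 4 in 4 of the 6 genes, SPNCRNA.99 and SPNCRNA.201 excepted, by normalised count.

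**Figure D4:**
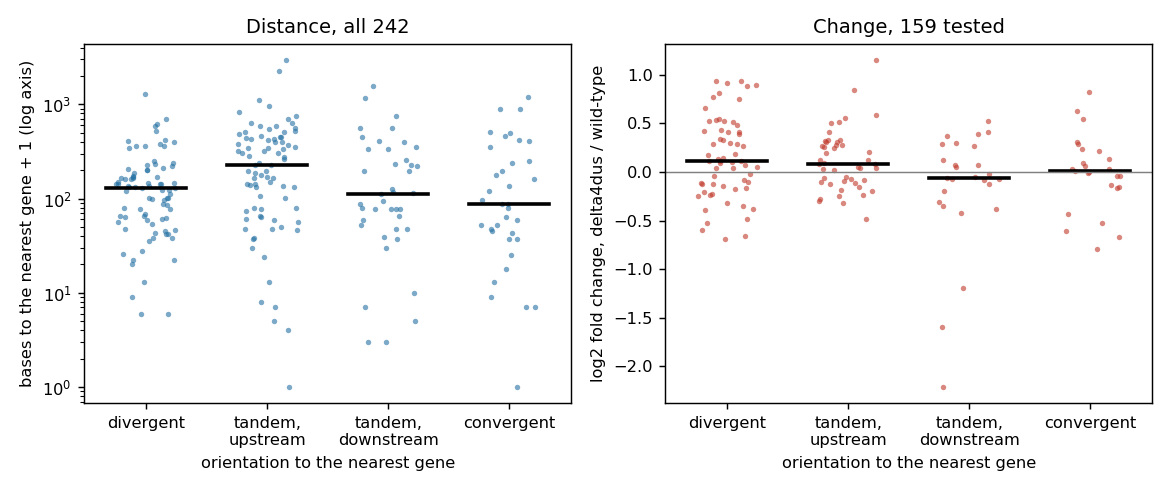
Distance to the nearest gene plus 1, on a log axis, for 242 genes (left) and log2 fold change for the 159 tested (right), by placement. Points are genes and bars are medians, which are 127, 225, 112 and 87 bases on the left, plus 1, and 0.12, 0.08, -0.06 and 0.01 on the right.

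By placement, divergent genes had a median log2 fold change of 0.12, with 39 of 62 above 0 and non-overlapping strains in 19 higher and 7 lower. Upstream tandem genes had 0.08, with 29 of 46 above 0 and 8 higher and 1 lower without overlap. Downstream tandem genes had -0.06, with 11 of 26 above 0 and 6 higher and 6 lower. Convergent genes had 0.01, with 14 of 25 above 0, 1 higher and 3 lower. Over all genes tested, 19% were higher and 19.7% lower without overlap. These are descriptions of the libraries, and no difference between placements was tested. A gene and its nearest gene had fold changes of the same sign in 81 of 151 pairs, and the Pearson correlation across these pairs was 0.042 (Spearman 0.141).

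The deletion of dus3 lies close to SPNCRNA.247, at 125 bases. It had 5 and 9 counts in wild-type against 15 and 14 in delta4dus, higher in both delta4dus libraries, with a log2 fold change of 0.75 (SE 0.57, edgeR adjusted p 0.809). Its nearest gene, ura2, which encodes dihydroorotase, had 1688 and 1983 normalised counts in wild-type against 2944.98 and 2981 in delta4dus, which gave a log2 fold change of 0.69 (edgeR adjusted p 0.231). SPNCRNA.99 lies 2579 bases from dus3.

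**Figure D5:**
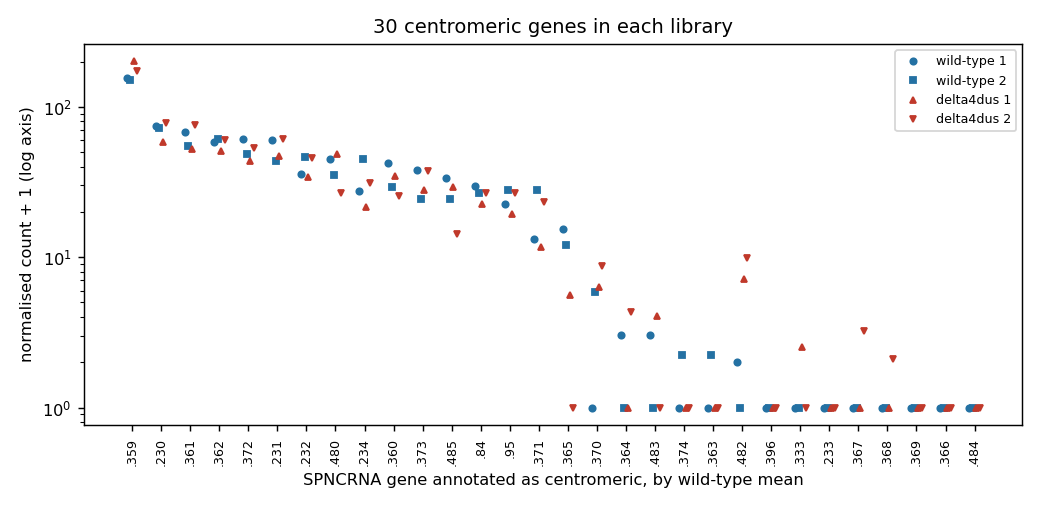
Normalised count plus 1, on a log axis, of each of 30 genes annotated as centromeric in each of 4 libraries, ordered by wild-type mean. The libraries of both strains intermingle along most of the series, with SPNCRNA.359 the highest in all 4.

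The centromeres held 30 of the genes, 26 of them with a near-identical copy elsewhere in the assembly and 5 with no read in any library. Copies numbered up to 15, for SPNCRNA.231. Their median wild-type level was 0.243. Summed over the 30, the normalised counts were 770 and 721 in wild-type against 708 and 766 in delta4dus, overlapping between strains (exact permutation p = 0.667). Of the 16 tested, 4 had a fold change above 0 and 12 below, with a median of -0.14. SPNCRNA.359 had 154 and 150 normalised counts in wild-type against 200 and 172 in delta4dus, higher in both, with a log2 fold change of 0.29. nam5, a centromeric long non-coding RNA, had 73.8 and 70.9 against 57.4 and 76.7, and nam6 (SPNCRNA.361) had 66.6 and 53.8 against 51.3 and 74.5, both overlapping. IRC1-L, printed above with the gap to nam5, had 28.7 and 25.7 against 21.42 and 25.58, both below wild-type, the second only just. IRC1-R (SPNCRNA.95), at the right border, had 21.5 and 26.9 against 18.4 and 25.6. SPNCRNA.360 had 41.0 and 28.1 against 33.7 and 24.5, and the isolated SPNCRNA.234 had 26.6 and 44.0 against 20.7 and 30.02.

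Several centromeric genes were at or near 0. SPNCRNA.367 and SPNCRNA.368, 4 bases apart, had 2 counts and 1 count, all in the second delta4dus library. SPNCRNA.333 and SPNCRNA.396, 6 bases apart, had 2 counts and 0, those of SPNCRNA.333 in the first delta4dus library. SPNCRNA.370, the gene farthest from any other, had 0 and 4 counts in wild-type against 7 in each delta4dus library. Of the inverted pair printed above, SPNCRNA.483 had 2 and 0 counts in wild-type against 4 and 0 in delta4dus, and SPNCRNA.484 had none. The paralogs SPNCRNA.116 and SPNCRNA.118 had 0 counts in all libraries and 1, 0, 3 and 1 counts.

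Among genes with a name in the annotation, the widest spread was that of omt3 (SPNCRNA.130), annotated as a meiosis-specific RNA of Smp foci. It had 358 and 52 counts in wild-type against 141 and 29 in delta4dus. The first library of each strain was far above the second, and the log2 fold change was -1.59 (95% interval -5.57 to 2.38). meu3 (SPNCRNA.07), named for its expression in meiosis, showed the same order within each strain, with normalised counts of 558 and 273 in wild-type against 471 and 254 in delta4dus. meu19 (SPNCRNA.29) had 708 and 405 against 649 and 338, and prl24 (SPNCRNA.24) had 163 and 70.9 against 157 and 92.3. Of 90 genes with a mean of at least 50 counts, omt3 and meu3 (2.22%) were at least 1.8 times higher in the first library than in the second in both strains, against 20 of 6361 genes in all (0.314%). The reverse, at least 1.8 times higher in the second library in both strains, held for 0 of the 90 and for 109 of the 6361 (1.71%). The ratio of 1.8 was set after these values were seen, so these shares are a description only.

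The prl genes, most of them annotated as poly(A)-bearing RNAs, had no member past the test. prl58 (SPNCRNA.58), which touches the end of SPAC20G8.02, had 628 and 449 normalised counts in wild-type against 534 and 431 in delta4dus. prl21 (SPNCRNA.21) had 43.0 and 33.01 against 51.3 and 55.6, and prl50 (SPNCRNA.50), divergent from meu13, had 16.4 and 15.9 against 21.4 and 21.1, both higher in delta4dus in each library. prl51 (SPNCRNA.51) had 30.7 and 34.2 against 49.7 and 27.8, prl36 (SPNCRNA.36) 31.8 and 30.6 against 24.5 and 42.3, and prl11 (SPNCRNA.11) 10.2 and 15.9 against 9.18 and 15.6, all overlapping. prl68 (SPNCRNA.68) and prl12 (SPNCRNA.12) were not tested, with 6, 4, 10 and 9 counts and with 1 count in all.

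Among named genes at known regulatory loci, ncRNA.1343 did not separate the strains and fbp1-ot2 had too few reads to be tested. ncRNA.1343, annotated as the bidirectional partner of nc-tgp1, had 1330 and 1092 normalised counts in wild-type against 1388 and 1074 in delta4dus, with a log2 fold change of 0.03 (95% interval -0.42 to 0.47). fbp1-ot2 (SPNCRNA.1326), annotated as a regulatory RNA upstream of the glucose-repressed gene fbp1, had 1 count in 3 libraries and 0 in the first delta4dus library.

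None of 59 listed exosome, RNA interference, termination and chromatin factors passed the test between the strains. All 59 were tested, edgeR called 0, against 0.0734% of all genes, and 24 had a log2 fold change above 0 and 35 below, with a median of -0.01 and a range from -0.23 to 0.28. At an unadjusted p under 0.05 there were 3 of the 59, mmi1, cid12 and rdp1, against 7.57% of all genes. mmi1, whose product directs meiotic transcripts to decay, had 5413 and 5015 normalised counts in wild-type against 4673 and 4336 in delta4dus (log2 fold change -0.21, edgeR adjusted p 0.626). cid12, a poly(A) polymerase of the RNA interference machinery, had 1719 and 1691 against 1884 and 1968 (0.18, edgeR adjusted p 0.628). rdp1, its RNA-directed RNA polymerase, had 2606 and 2674 against 2927 and 2863 (0.13, edgeR adjusted p 0.646).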

How the data were processed

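Both genotypes were sequenced, with 2 libraries each. Per the submitters' processing notes, Trimmomatic 0.36, TopHat2, featureCounts and the build ASM294v2 were used; how counting treated strand, repeats and overlapping genes is not given there. The authors deposited raw counts for 7049 genes with gene lengths, and a table of their own comparison made with DESeq2, per the same notes: a mean normalised signal, a log2 fold change with its error, a test score and p-values. No column was left without a sample.

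Counts were tested with edgeR 4.0.16 (R 4.3.3) across all genes: filterByExpr defaults (minimum count 10, total 15; 6813 genes kept), TMM scaling, a robust two-sided quasi-likelihood test of genotype with 2 residual degrees of freedom, and Benjamini-Hochberg adjustment over all tested genes at 0.05. The fit was tested on simulated data. Standard errors come from the quasi-likelihood F. Normalised counts are counts over TMM-based relative library size. DESeq2 1.42.0, RLE scaling, library totals, other filters, a fit without rRNA genes, a replicate block and leaving out each library were alternatives. Correlations of levels used log2 of the level plus 0.01. Reads have no molecular identifiers, so counting error alone understates the error.

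Distances and levels use the deposited ASM294v2 spans. Sequences, names and products come from RefSeq ASM294v3, matched by identifier for 6844 of 7049 genes; 226 of the 242 spans were the same in both builds. Start windows of 300 bases were cut from that genome, since no promoter table was used here. Copies were searched with blastn 2.17.0+. Named genes are the 8 with the highest level (mean of at least 20 counts), the 6 higher and the 6 lower with the smallest p and no overlap, those with a name, those within 5000 bases of a dus gene, the 2 longest, the 2 shortest, the 3 farthest and the 3 nearest pairs. The genes, lists and rules were chosen with earlier results of these data known. SPNCRNA.390, SPNCRNA.359, SPNCRNA.231, SPNCRNA.483 and SPNCRNA.484, the ratio of 1.8 and the mating-type genes beside SPNCRNA.389 were taken after values were seen.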

Additional observations from a re-analysis of the deposited data

How the results depend on the processing

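The count of 0 genes called held under RLE scaling, library totals, no filter, a minimum count of 50, DESeq2, the fit without rRNA genes and each left-out library. The exception was the fit with the replicate number as a block, which called 10 of the 159 (8 higher, 2 lower), against 825 of 6813 genes (12.1%). SPNCRNA.389, SPNCRNA.751, SPNCRNA.1190, SPNCRNA.184, SPNCRNA.1444 and SPNCRNA.99 passed there, with log2 fold changes of 0.93, 0.77, 0.51, 0.92, 0.49 and -0.35, as did omt3. Only the number links the libraries. Their deviations from the strain means correlated at 0.6355 over all genes and 0.4326 over these. With 2 pairs these values cannot decide whether libraries of the same number are paired. Over all genes DESeq2 called 52, and leaving out a library gave 3 to 5, against 5, with the 3 lacking wild-type replicate 2.

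Scaling by library totals moved the median log2 fold change of the 159 to -0.36 and the share above 0 to 17.6%, while the median of all genes moved to -0.42. Relative to all genes the 159 stayed above. Leaving out a library gave medians from -0.04 (without delta4dus replicate 1) to 0.21 (without wild-type replicate 1), and shares above 0 from 47.7% (without wild-type replicate 2) to 69.8% (without wild-type replicate 1), so the sign of the median rests on single libraries. The delta4dus share of counts over the wild-type share, 0.955, became 0.987 for genes at least 200 bases from the nearest, 1.05 for those with no gene within 500 bases on their strand and, chosen after seeing the data, 1.03 without srp7, SPNCRNA.1094 and SPNCRNA.1095; leaving out a library gave 0.931 to 0.980. Without the genes with a near-identical copy, also chosen later, the median was 0.10 and the share above 0 was 63.7%.

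Under library totals the sign turned for srp7 (-0.42), SPNCRNA.530 (-0.20), SPNCRNA.1444 (-0.00044) and SPNCRNA.907 (-0.38). With a library left out it turned for srp7 (-0.18 to 0.28), SPNCRNA.1095 (-0.58 to 0.011), SPNCRNA.1094 (-0.26 to 0.11) and SPNCRNA.1444 (-0.11 to 0.99). Of 200 values for 19 named genes, 185 kept sign and side of the threshold, and 9 fits gave no value. With a library left out SPNCRNA.365 ranged from -6.54 (without delta4dus replicate 1) to -1.45 (without delta4dus replicate 2), snoR61 from -0.23 to -0.02 (the same libraries) and SPNCRNA.530 from 0.003 to 0.51 (without wild-type replicates 1 and 2). The causes were not tested. Low counts limit what could be seen: the median half-width of the 95% interval was 0.84 on the log2 scale, and 55 of the 159 were wider than 1.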
